A study of Mus musculus with 6 samples.

Results

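Transcription factors that build the nephron in the embryo were followed in adult mouse kidneys with activated Notch2 and in wild-type kidneys. The set was chosen by name, with earlier results of these data known. It held 9 genes of nephron progenitors and of early tubule development, namely Pax2, Pax8, Lhx1, Six2, Osr1, Sall1, Emx1, Emx2 and Eya1. Each of the 9 had 1 row among the 23873 rows of the gene table, and 8 of the 9 rows held values. RNA came from whole kidneys at 8 weeks of age, with 3 libraries in each of 2 groups. The group called NICD2_Pax8 here has the genotype R26NICD2/+pax8cre, that is, 1 copy of a Rosa26 allele for the Notch2 intracellular domain together with a Cre recombinase driven by Pax8. The group called WT is labelled wild type, and its library titles begin with the letters NICD, so that carriage of the allele without the driver is not settled by the labels. In the title of the series the driver is Pax-rtTA in place of Cre, and no treatment is named for either group. Pax8 is thus both the driver gene and a member of the set. The labels name no separate animals, so p-values measure the spread between these libraries, and whether it is a spread between animals is not settled. In WT it is more than a spread between repeats of 1 RNA sample, as replicate 1 alone held adrenal cortex transcripts at a high level (values below).

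The nephron forms from a progenitor population, the cap mesenchyme, which is induced by the ureteric bud to become an epithelial vesicle and then a segmented tubule. Osr1 marks the earliest kidney precursors, Eya1 and Six2 act together in the progenitors, and Sall1 keeps them in the progenitor state. Pax2 and Pax8 are closely related paired-domain factors needed for the kidney lineage as a whole, Lhx1 patterns the early tubule, and Emx2 is needed in the ureteric bud. Emx1 is the paralog of Emx2, best known from the developing cerebral cortex. The Notch intracellular domain enters the nucleus and acts there through the DNA-binding protein RBPJ, whose core motif is TGGGAA.

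Promoter sequences are shown for the paralogous pairs Emx1 and Emx2, and Pax2 and Pax8, because the results turn on how the members of these pairs differed. Each is the RefSeq sequence of build GRCm38.p6 from 250 bases before to 50 bases after a start site, written 5′ to 3′ on the strand of the gene. Capitals mark the RBPJ core TGGGAA or its reverse complement TTCCCA, which were searched on both strands, and all other bases are in lower case.
Emx2 (chr19:59458440-59458739, plus strand): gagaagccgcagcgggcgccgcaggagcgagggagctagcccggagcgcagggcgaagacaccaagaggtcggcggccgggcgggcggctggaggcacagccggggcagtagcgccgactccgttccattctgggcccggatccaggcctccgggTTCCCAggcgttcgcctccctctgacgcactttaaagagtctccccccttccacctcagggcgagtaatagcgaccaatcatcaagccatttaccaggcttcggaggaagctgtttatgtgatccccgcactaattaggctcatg
Emx1 (chr6:85187681-85187980, plus strand): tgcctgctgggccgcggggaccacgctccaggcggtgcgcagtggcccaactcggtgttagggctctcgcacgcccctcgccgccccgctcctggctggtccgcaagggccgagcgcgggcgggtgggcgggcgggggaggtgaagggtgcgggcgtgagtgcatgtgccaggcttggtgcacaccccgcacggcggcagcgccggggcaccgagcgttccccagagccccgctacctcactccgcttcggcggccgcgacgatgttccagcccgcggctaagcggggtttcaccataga
Pax2 (chr19:44746351-44746650, plus strand, the first of 3 start sites): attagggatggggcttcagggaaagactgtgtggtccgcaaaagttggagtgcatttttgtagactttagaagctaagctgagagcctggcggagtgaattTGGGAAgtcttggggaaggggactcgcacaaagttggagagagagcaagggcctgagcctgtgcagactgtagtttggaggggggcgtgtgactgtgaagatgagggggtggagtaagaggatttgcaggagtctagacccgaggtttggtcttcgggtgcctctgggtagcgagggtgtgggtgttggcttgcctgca
Pax8 (chr2:24475550-24475849, minus strand): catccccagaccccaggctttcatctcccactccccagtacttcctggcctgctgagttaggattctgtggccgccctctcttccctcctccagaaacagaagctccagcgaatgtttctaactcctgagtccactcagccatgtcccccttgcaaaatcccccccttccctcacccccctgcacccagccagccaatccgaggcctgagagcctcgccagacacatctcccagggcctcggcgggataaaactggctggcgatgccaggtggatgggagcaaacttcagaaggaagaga

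The Emx2 window held the motif as TTCCCA beginning 95 bases before the start, and the first Pax2 window held TGGGAA beginning 149 bases before the start. Neither the Emx1 nor the Pax8 window held these letters. Promoter windows were found for 7 of the 9 genes, 11 windows in all, and 2 of the 11 held the motif. Of the 32851 promoter windows of all genes, 25.6% held it, and a match is a description of the letters alone. The Emx1 window had a GC content of 74.0% with 37 CpG dinucleotides and the Emx2 window 64.3% with 26, against medians of 52.7% and 7 over all windows. Pax8 and the first window of Pax2 had 7 CpG dinucleotides each. The later Pax2 windows, which are not shown, held no motif and had 23 and 30.

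Of the 13500 genes that reached 1 FPKM in at least 3 libraries, 45.1% were higher and 16.2% lower in NICD2_Pax8 kidneys at a limma adjusted p under 0.05. FPKM is a fragment count scaled to transcript length and library total, and log2 fold changes below are on the log2(FPKM + 1) scale, NICD2_Pax8 minus WT. Over all tested genes the log2 fold change had a median of 0.32 on FPKM as deposited and 0.02 after median-of-ratios scaling, with which 28.5% of genes were higher and 26% lower and the higher share of calls moved from 73.6% to 52.3%. Depth, estimated from the steps between low values, was 15900000 to 17500000 fragments in NICD2_Pax8 and 14700000 to 15200000 in WT libraries. The summed level of 10 proximal tubule markers was 211 to 4804 FPKM in NICD2_Pax8 and 59794 to 91033 FPKM in WT libraries, and all 10 were lower, with Kap the most abundant. Kap alone stood at 59.9 to 4192 FPKM in NICD2_Pax8 and at 55466 to 84655 FPKM in WT libraries. It made up most of the sum in all libraries but NICD2_Pax8 replicate 1. Of 9 markers of the thick limb and distal tubule 8 were lower and 0 higher. The most abundant of them, Umod, did not pass (log2 fold change 0.31, limma adjusted p = 0.455). Of 7 principal cell markers 2 were higher, among them Scnn1g, the most abundant in NICD2_Pax8, and 2 lower, among them Aqp2, the most abundant in WT. Of 6 stromal markers 3 were higher, among them Acta2, the most abundant in NICD2_Pax8, and 2 lower, among them Dcn, the most abundant in WT. WT replicate 1 held 3673 FPKM of 6 adrenal cortex markers, led by Hsd3b1, where the other 5 libraries held 1.39 to 1.63 FPKM, and 4407 FPKM of 5 fat markers, led by Fabp4, where the others held 63.0 to 894 FPKM. Of the adrenal markers 1, Nr5a1, was at 0 in all libraries but WT replicate 1. In whole kidney RNA, fewer cells of a type and less RNA per cell cannot be told apart, and the part of these shifts in the results below was not tested.

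Of the 9 factors, 3 rose in NICD2_Pax8 kidneys (Emx2, Pax8 and Pax2) and 1 fell (Osr1), 3 were tested and did not pass (Sall1, Lhx1 and Emx1), Eya1 was under the filter and Six2 had no values. With median-of-ratios scaling 2 were higher (Emx2 and Pax8) and 3 lower (Osr1, Lhx1 and Emx1), and quantile normalization gave the same 2 counts, where 28.6% of tested genes were higher and 26.4% lower. When WT replicate 1 was left out, 6 were tested, Osr1 no longer among them, and 3 were higher and 2 lower (Lhx1 and Emx1), where 50.4% of tested genes were higher and 15.6% lower. With scaling and without that library 2 were higher and 2 lower, where the shares of tested genes were 31% and 27.2%. With no filter 3 of the 8 factors with values were higher and 1 lower, where 32.6% of tested genes were higher and 12.2% lower. With no filter and without WT replicate 1 they were 3 and 2 of 8, where the shares of tested genes were 36.7% and 13.4%. The 3 NICD2_Pax8 libraries lay above the 3 WT libraries for 3 of the 8 factors with values and below them for 3, where 49.9% of tested genes lay above and 18.8% below. At a q under 0.05 in the authors' deposited table, 2 of the 8 factors with values were higher and 4 lower, where 21.3% of 19439 genes were higher and 21.5% lower. The shares higher among the factors are thus near the background under each scaling. The share lower was 14.3% on FPKM as deposited, near the 16.2% of all tested genes, but 42.9% with either scaling. Without WT replicate 1 it was 33.3%, with scaling or without. These shares are of 6 or 7 tested factors and got no test. The 14.3% and the 42.9% include Osr1, which passed the filter only through the WT libraries, so a difference was built into its call. Eya1, among those lower in the authors' deposited table, had nearly all its signal in WT replicate 1. The paragraphs below rest on the single genes.

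**Figure D1:**
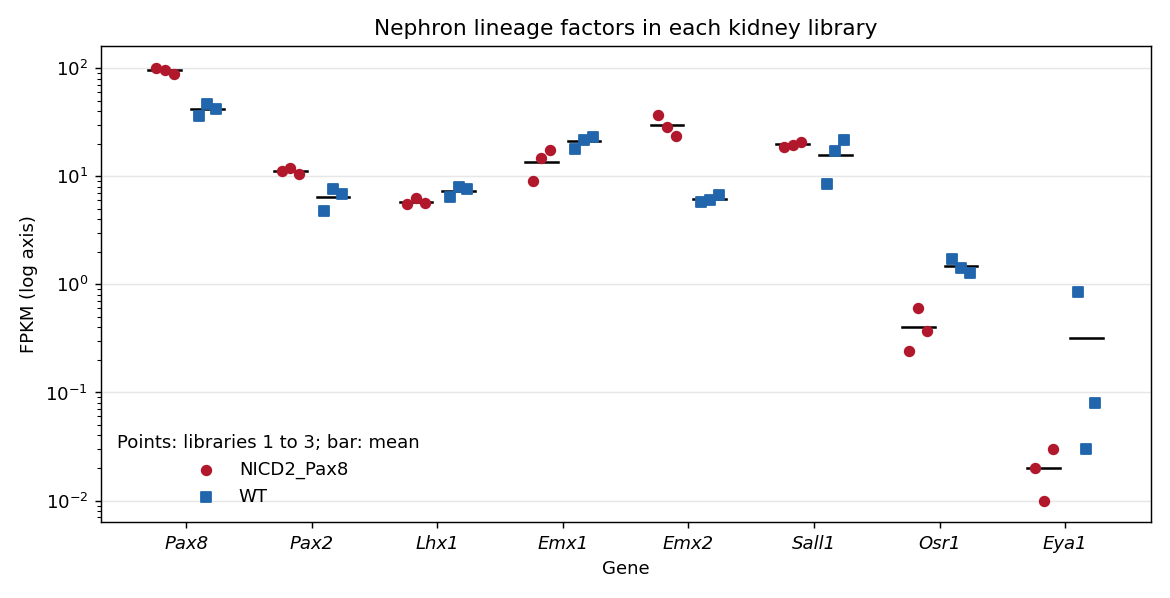
FPKM of the 8 nephron lineage factors with values in each library, on a log axis, with NICD2_Pax8 (circles) left of WT (squares) and a bar at the group mean; Six2 had no values. Emx2, Pax8 and Pax2 lie higher in all 3 NICD2_Pax8 libraries, Lhx1, Emx1 and Osr1 lie lower, and the highest Eya1 value, 0.85 FPKM, belongs to WT replicate 1.

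Pax8 (gene 18510, chr2:24420551-24480320, minus strand), which the tubule keeps expressing in the adult, was the most abundant of the set in both groups. Its level was 101.06, 95.45 and 88.63 FPKM in the NICD2_Pax8 libraries, in replicate order here and below, and 35.91, 46.65 and 41.72 FPKM in the WT libraries. Every NICD2_Pax8 library was above every WT library. The means were 95.0 ± 6.22 FPKM in NICD2_Pax8 and 41.4 ± 5.38 FPKM in WT (SD, n = 3 each), 2.29-fold higher, with a log2 fold change of 1.18 (SE 0.12, limma adjusted p = 3.15e-04). After scaling the log2 fold change was 0.84 (limma adjusted p = 0.00372), and the authors' deposited table gave 0.97 (q = 1.54e-06). The values rested on about 11561 to 12095 fragments in NICD2_Pax8 and 3935 to 5146 in WT libraries.

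The model of Pax8 in the file was the only one of the set whose ends differed from RefSeq. It reached 4721 bases past the RefSeq start at 24475599 and included 1 transcript under the authors' own identifiers. In that upstream stretch lay another row of the authors' own with no gene name, on the opposite strand (chr2:24477754-24480320), and all its 2567 bases overlapped the Pax8 model. This row stood at 1.37, 2.10 and 2.89 FPKM in NICD2_Pax8 and at 0.03, 0.01 and 0.10 FPKM in WT libraries, a log2 fold change of 1.55 (SE 0.20, limma adjusted p = 7.56e-04). It passed the filter only through the group in which it was higher, so a difference was built in. The labels name no stranded counting, so fragments of the 2 rows cannot be told apart where they overlap, and how much of the Pax8 difference comes from the upstream stretch was not tested. Per the labels only the NICD2_Pax8 kidneys carry a driver named for Pax8, and its part in these 2 rows was not tested either.

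Pax2 (gene 18504, chr19:44746601-44838269, plus strand), the paralog of Pax8 that persists mainly in the collecting duct of the adult, had 14 transcripts in the file. It stood at 11.28, 11.82 and 10.53 FPKM in NICD2_Pax8 and at 4.77, 7.62 and 6.91 FPKM in WT libraries. The groups did not overlap, and WT replicate 1 was the lowest library. Pax2 averaged 11.2 ± 0.648 FPKM in NICD2_Pax8 and 6.43 ± 1.48 FPKM in WT kidneys (SD, n = 3 each). Its log2 fold change was 0.74 (SE 0.17, limma adjusted p = 0.00786). The call ended after median-of-ratios scaling, with a log2 fold change of 0.42 (limma adjusted p = 0.118), and with quantile normalization, at 0.34 (limma adjusted p = 0.186). In the authors' deposited table Pax2 did not pass either, at 0.43 (q = 0.156).

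Lhx1 (gene 16869, chr11:84517975-84525534, minus strand), the LIM homeobox factor of the early tubule, was lower in NICD2_Pax8 libraries. It stood at 5.49, 6.24 and 5.69 FPKM in NICD2_Pax8 and at 6.48, 7.95 and 7.54 FPKM in WT libraries. All NICD2_Pax8 libraries were below all WT libraries, by a small margin. Its log2 fold change of -0.29 (SE 0.12, limma adjusted p = 0.0679) did not pass on FPKM as deposited. After median-of-ratios scaling it was -0.59 (limma adjusted p = 0.0111), without WT replicate 1 it was -0.36 (limma adjusted p = 0.0246), and the authors' deposited table gave -0.70 (q = 0.00117). The neighbouring row Aatf, 4391 bases away on the same strand and with no overlap, stood at 18.95 ± 1.67 FPKM in NICD2_Pax8 and 8.46 ± 0.347 FPKM in WT (SD, n = 3 each).

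Emx2 (gene 13797, chr19:59458690-59465357, plus strand), the homeobox factor of the ureteric bud and its branches, had the largest log2 fold change of the 7 tested factors. It stood at 37.01, 28.59 and 23.75 FPKM in NICD2_Pax8 and at 5.77, 5.97 and 6.67 FPKM in WT libraries. The groups were far apart, and the lowest NICD2_Pax8 library was well above the highest WT library. The means were 29.8 ± 6.71 FPKM in NICD2_Pax8 and 6.14 ± 0.473 FPKM in WT (SD, n = 3 each), 4.85-fold higher, with a log2 fold change of 2.09 (SE 0.17, limma adjusted p = 1.31e-04). After scaling it was 1.76 (limma adjusted p = 3.91e-04), and the authors' deposited table gave 1.90 (q = 4.02e-16). Of all tested genes 95.7% had a lower log2 fold change.

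Emx1 (gene 13796, chr6:85187931-85204463, plus strand), its paralog, was lower in NICD2_Pax8 libraries. It stood at 9.02, 14.65 and 17.30 FPKM in NICD2_Pax8 and at 17.88, 21.73 and 23.29 FPKM in WT libraries. The groups did not overlap, but NICD2_Pax8 replicate 3 and WT replicate 1 differed by less than 1 FPKM. Emx1 averaged 13.7 ± 4.23 FPKM in NICD2_Pax8 and 21.0 ± 2.78 FPKM in WT kidneys (SD, n = 3 each). Its log2 fold change of -0.62 (SE 0.23, limma adjusted p = 0.0535) narrowly missed the threshold. It passed after median-of-ratios scaling, at -0.95 (limma adjusted p = 0.0206), with quantile normalization, at -0.97 (limma adjusted p = 0.0173), and in the authors' deposited table, at -0.96 (q = 0.00727). It also passed without WT replicate 1 (limma adjusted p = 0.0468) and without NICD2_Pax8 replicate 3 (limma adjusted p = 0.0298). The row rested on about 148 to 313 fragments in NICD2_Pax8 and 272 to 366 in WT libraries. The neighbouring row Sfxn5 lay 8586 bases away on the opposite strand, with no overlap. Its level was 3.38 ± 0.455 FPKM in NICD2_Pax8 and 6.52 ± 0.257 FPKM in WT (SD, n = 3 each). NICD2_Pax8 replicate 1, the library with the lowest summed proximal tubule markers, had the highest Emx2 and Pax8 and the lowest Emx1, Lhx1, Sall1 and Osr1 of its group. Its Pax2 was the middle value. In WT the lowest sum, most of it Kap, was that of replicate 1, which also had the lowest Emx1, Lhx1 and Sall1 of its group. There Emx2, Pax8 and Pax2 were lowest too, and Osr1 was highest. A link between these levels and the markers was not tested.

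**Figure D2:**
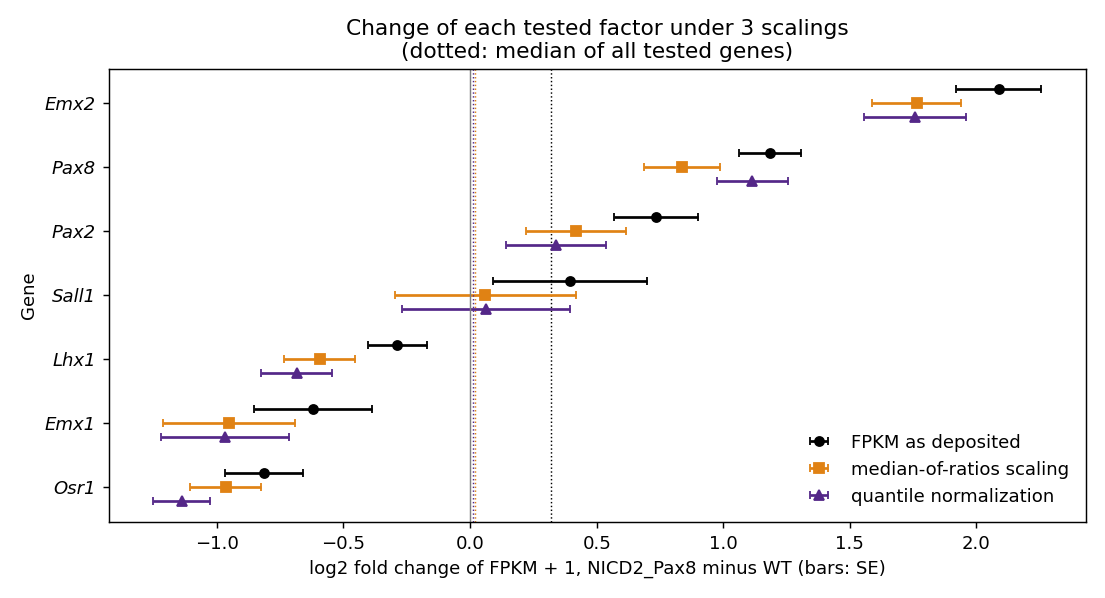
Log2 fold change of FPKM + 1 (NICD2_Pax8 minus WT, horizontal axis) with its SE for the 7 tested factors under 3 scalings, with dotted lines at the median of all tested genes. Emx2 and Pax8 lie right of 0 under all 3 scalings, Lhx1, Emx1 and Osr1 lie left of 0, and Pax2 comes to 0.42 after median-of-ratios scaling against 0.74 on FPKM as deposited.

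Ratios of FPKM as deposited within a library are not changed by 1 scaling factor per library, though quantile normalization can change them. Emx1 to Emx2 was 0.244, 0.512 and 0.728 in NICD2_Pax8 and 3.10, 3.64 and 3.49 in WT libraries. Emx2 was thus the more abundant paralog in all 3 NICD2_Pax8 libraries, and Emx1 in all 3 WT libraries. The mean log2 ratio differed by -2.92, with -1.15 ± 0.806 in NICD2_Pax8 and 1.77 ± 0.12 in WT (SD, n = 3 each; two-sided exact permutation p = 0.1, the smallest that 3 against 3 allows). Pax2 to Pax8 was 0.112, 0.124 and 0.119 in NICD2_Pax8 and 0.133, 0.163 and 0.166 in WT libraries. Here the difference in the mean log2 ratio was -0.38 with no overlap (two-sided exact permutation p = 0.1, again the smallest possible), and WT replicate 1 lay nearest to the NICD2_Pax8 libraries.

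**Figure D3:**
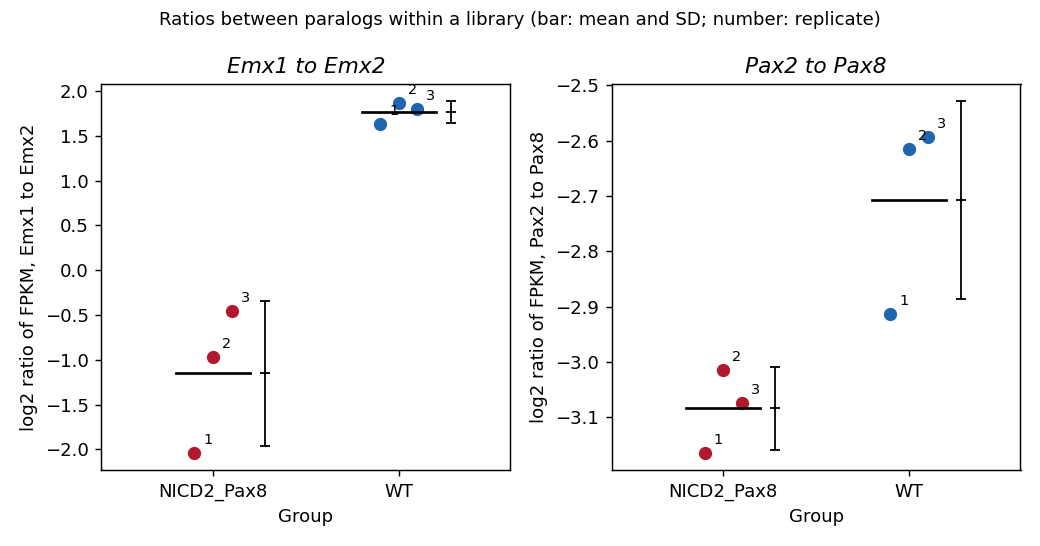
Log2 ratio of FPKM within each library for Emx1 to Emx2 (left) and Pax2 to Pax8 (right), with NICD2_Pax8 left of WT, numbers for replicates, a line at the mean and the SD beside it. The Emx1 to Emx2 ratio lies below 0 in every NICD2_Pax8 library and above 0 in every WT library; the vertical axes differ between panels.

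Set against genes of the tubule epithelium, the factors gave answers that depended on the gene they were set against. Cdh16, the kidney cadherin found along the tubule, was lower in NICD2_Pax8 (log2 fold change -0.98, limma adjusted p = 0.00728), while Epcam, an adhesion molecule of simple epithelia, was higher (1.82, limma adjusted p = 0.00112). The summed level of 4 epithelial markers, of which Krt8 was highest in NICD2_Pax8 and Cdh16 in WT, was 708 to 822 FPKM in NICD2_Pax8 and 368 to 549 FPKM in WT libraries, with 3 of the 4 higher and 1 lower. All 6 factors above 1 FPKM in every library had a higher ratio to Cdh16 in the NICD2_Pax8 libraries, with Emx2 at 0.270, 0.135 and 0.113 in NICD2_Pax8 and 0.0198, 0.0144 and 0.017 in WT. Set against Epcam, Pax2, Pax8, Lhx1, Sall1 and Emx1 had a lower ratio in all NICD2_Pax8 libraries. The ratio of Emx2 to Epcam overlapped, at 0.338, 0.325 and 0.282 in NICD2_Pax8 and 0.342, 0.170 and 0.236 in WT libraries (two-sided exact permutation p = 0.4). In all 14 ratios were compared, and none could go below 0.1.

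Sall1 (gene 58198, chr8:89027242-89044162, minus strand), a zinc finger repressor of progenitors that is also expressed in the adult kidney, did not pass. It stood at 18.70, 19.52 and 20.88 FPKM in NICD2_Pax8 and at 8.44, 17.18 and 21.66 FPKM in WT libraries. The groups overlapped, and WT replicate 1 was far below the other WT libraries. The log2 fold change was 0.40 (SE 0.31, limma adjusted p = 0.298), 0.06 after scaling, 0.03 without WT replicate 1, and -0.37 with both (limma adjusted p = 0.0717), so its direction turned with scaling and that library left out together. The authors' deposited table gave -0.07 (q = 0.905).

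Osr1 (gene 23967, chr12:9574442-9581500, plus strand), the zinc finger factor of the earliest kidney precursors, was low in both groups. It stood at 0.24, 0.60 and 0.37 FPKM in NICD2_Pax8 and at 1.71, 1.41 and 1.27 FPKM in WT libraries, or about 7 to 19 fragments in NICD2_Pax8 and 36 to 47 in WT libraries. The groups did not overlap, and the mean was 3.63-fold lower in NICD2_Pax8. The log2 fold change was -0.82 (SE 0.15, limma adjusted p = 0.00368), and without a filter the limma adjusted p was 0.00348. Because Osr1 passed the filter only through the WT libraries, the filtered call had a difference built in, and it left the test when any WT library was left out. Without a filter and without WT replicate 1 its limma adjusted p was 0.00654. The authors' deposited table gave -2.11 (q = 8.48e-05). Of the stromal markers, Pdgfra stood at 3.66 ± 0.130 FPKM in NICD2_Pax8 and 8.76 ± 1.04 FPKM in WT, and Col1a1 at 85.4 ± 2.35 FPKM in NICD2_Pax8 and 22.2 ± 5.49 FPKM in WT (SD, n = 3 each), so stromal genes moved in both directions, and their part in the Osr1 difference was not tested.

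Eya1 (gene 14048, chr1:14168953-14311035, minus strand) encodes a phosphatase that serves as a coactivator of Six2 and its relatives. It stood at 0.02, 0.01 and 0.03 FPKM in NICD2_Pax8 and at 0.85, 0.03 and 0.08 FPKM in WT libraries. A single library, WT replicate 1 with its adrenal transcripts, held nearly all of the signal, at about 63 fragments, where the other 5 libraries held about 1 to 6. Without a filter its log2 fold change was -0.32 (SE 0.22, limma adjusted p = 0.305), and -0.05 (limma adjusted p = 0.308) with that library also left out. The authors' deposited table lists a log2 fold change of -3.25 (q = 0.00644) that includes it. For Six2 (gene 20472, chr17:85662736-85688254, minus strand), the defining factor of the cap mesenchyme, the row held no value in any library, like 4370 rows of the table in all, and the reason is not given in the sources used here.

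The order of the factors by level differed between the groups. In NICD2_Pax8 kidneys it ran Pax8, Emx2, Sall1, Emx1, Pax2, Lhx1, Osr1 and Eya1, and of these neighbours only Emx1 and Pax2 overlapped in their libraries. In WT kidneys it ran Pax8, Emx1, Sall1, Lhx1, Pax2, Emx2, Osr1 and Eya1, where Emx1 and Sall1 overlapped, as did Lhx1 with Pax2 and Pax2 with Emx2. By group means Emx2 thus stood next to Pax8 at the top in NICD2_Pax8 kidneys and below Pax2 and Lhx1 in WT kidneys. In WT, however, the libraries of Emx2 overlapped with those of both. Over the 6 libraries the genes whose log2(FPKM + 1) ran most like that of Pax8 were Agrn (Pearson r = 0.9997), Cmas (r = 0.9996) and Marveld2 (r = 0.999). With 2 groups far apart, such values mainly restate the group difference and are given with no test.

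Other genes of nephron development came from 4 lists chosen for their roles, with earlier results of these data known. The list of ureteric bud genes held 10 genes, of which 8 were tested, and 6 rose and 0 fell (median log2 fold change 1.27, against 0.32 over all genes tested). That is 75% higher, where 45.1% of all tested genes were higher and 16.2% lower, and 2 of the 6, Wnt9b and Etv4, passed the filter only through the NICD2_Pax8 libraries. At an unadjusted limma p under 0.05 also 0 were lower, and 6 of 10 were higher and 0 lower in the authors' deposited table, where 21.3% of all genes were higher and 21.5% lower. Wnt7b, a ligand of the collecting duct stalk, stood at 44.18, 34.77 and 29.36 FPKM in NICD2_Pax8 and at 0.32, 2.63 and 1.02 FPKM in WT libraries (log2 fold change 4.10, SE 0.36, limma adjusted p = 1.83e-04). Grhl2, a factor of epithelial identity, rose 4.73-fold, and Gata3, a regulator of the nephric duct and a known target of Pax2 and Pax8, 2.70-fold in mean FPKM. The receptor Ret, which the bud needs for its outgrowth, was not tested, at 0.08 to 0.09 FPKM in NICD2_Pax8 and 0.72, 0.12 and 0.08 FPKM in WT libraries. The same 6 were higher after median-of-ratios scaling, where 28.5% of all tested genes were higher.

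Genes of the early nephron, from the vesicle to the segmenting tubule, were 12, of which 11 were tested, and 6 rose and 1 fell (median 0.92). The share higher, 54.5%, was near the 45.1% of all tested genes, and the share lower was 9.09%, where it was 16.2% of all tested genes. Cdh6, a cadherin of the early proximal segment, stood at 36.70, 30.27 and 29.28 FPKM in NICD2_Pax8 and at 1.20, 1.23 and 0.98 FPKM in WT libraries (log2 fold change 3.95, SE 0.13, limma adjusted p = 1.34e-05). Jag1, the Notch ligand of the vesicle, rose 19.9-fold in mean FPKM, Ccnd1, a cyclin, 8.49-fold and the Iroquois factor Irx2 3.04-fold, while Irx3 of the same family fell to 11.7 ± 2.23 FPKM in NICD2_Pax8, against 16.5 ± 1.09 FPKM in WT (SD, n = 3 each). Wnt4, the signal that turns progenitors into epithelium, stood at 8.87, 7.35 and 6.96 FPKM in NICD2_Pax8 and at 9.51, 0.33 and 0.20 FPKM in WT libraries. It did not pass (limma adjusted p = 0.0937), and without WT replicate 1, the library with adrenal transcripts, its log2 fold change was 2.78 (limma adjusted p = 1.08e-04). After median-of-ratios scaling 4 were higher and 2 lower, or 36.4% and 18.2%, where 28.5% and 26% of all tested genes were. Without WT replicate 1 they were 7 and 0, with Irx3 at a limma adjusted p of 0.0552, where 50.4% of all tested genes were higher and 15.6% lower.

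The list of nephron progenitor genes held 12, of which 8 were tested, and 1 rose and 3 fell (median -0.40), or 12.5% and 37.5%, where 45.1% of all tested genes were higher and 16.2% lower. Wt1, a factor of progenitors that podocytes keep expressing, stood at 1.55, 1.84 and 2.14 FPKM in NICD2_Pax8 and at 5.97, 5.18 and 4.70 FPKM in WT libraries (log2 fold change -1.14, SE 0.14, limma adjusted p = 5.79e-04). Itga8, an integrin of the cap mesenchyme, and Dpf3 also fell, and Dpf3 passed the filter only through the WT libraries. Crym, a thyroid hormone binding protein, was the gene that rose, 1.81-fold in mean FPKM, and did not pass after scaling (limma adjusted p = 0.133). WT replicate 1 had the highest value of 6 of the 12, and without it 2 of 7 tested rose and 2 fell, where 50.4% of all tested genes were higher and 15.6% lower. Cited1, a marker of uninduced progenitors, was not tested, at 0.61, 0.64 and 0.66 FPKM in NICD2_Pax8 and 2.23, 0.11 and 0.17 FPKM in WT libraries.

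Among 26 genes related to the factors by family, 5 held no values, 14 more were under the filter and 7 were tested. Of these 5 rose and 0 fell (median 0.60), or 71.4% higher, where 45.1% of all tested genes were higher and 16.2% lower. At an unadjusted limma p under 0.05 also 0 were lower. In the authors' deposited table only 2 of 21 were higher and 1 lower, where 21.3% of all genes were higher and 21.5% lower. These 21 include the 14 under the filter. Six4 stood at 2.36, 1.72 and 1.98 FPKM in NICD2_Pax8 and at 0.54, 0.50 and 0.78 FPKM in WT libraries (log2 fold change 0.91, SE 0.14, limma adjusted p = 0.00178), and it passed the filter only through the NICD2_Pax8 libraries. Eya3, a ubiquitous relative of Eya1, rose 1.66-fold in mean FPKM. Osr2, the paralog of Osr1, stood at 8.78 ± 1.93 FPKM in NICD2_Pax8 and 7.76 ± 1.09 FPKM in WT (SD, n = 3 each; limma adjusted p = 0.509). After median-of-ratios scaling 2 were higher (Six4 and Eya3) and 1 lower (Eya2), or 28.6% and 14.3%, where 28.5% and 26% of all tested genes were. Among all 1865 tested genes to which the file assigns a transcription factor family, an annotation that only 4 of the 9 factors carry, 51.5% were higher and 8.63% lower.

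**Figure D4:**
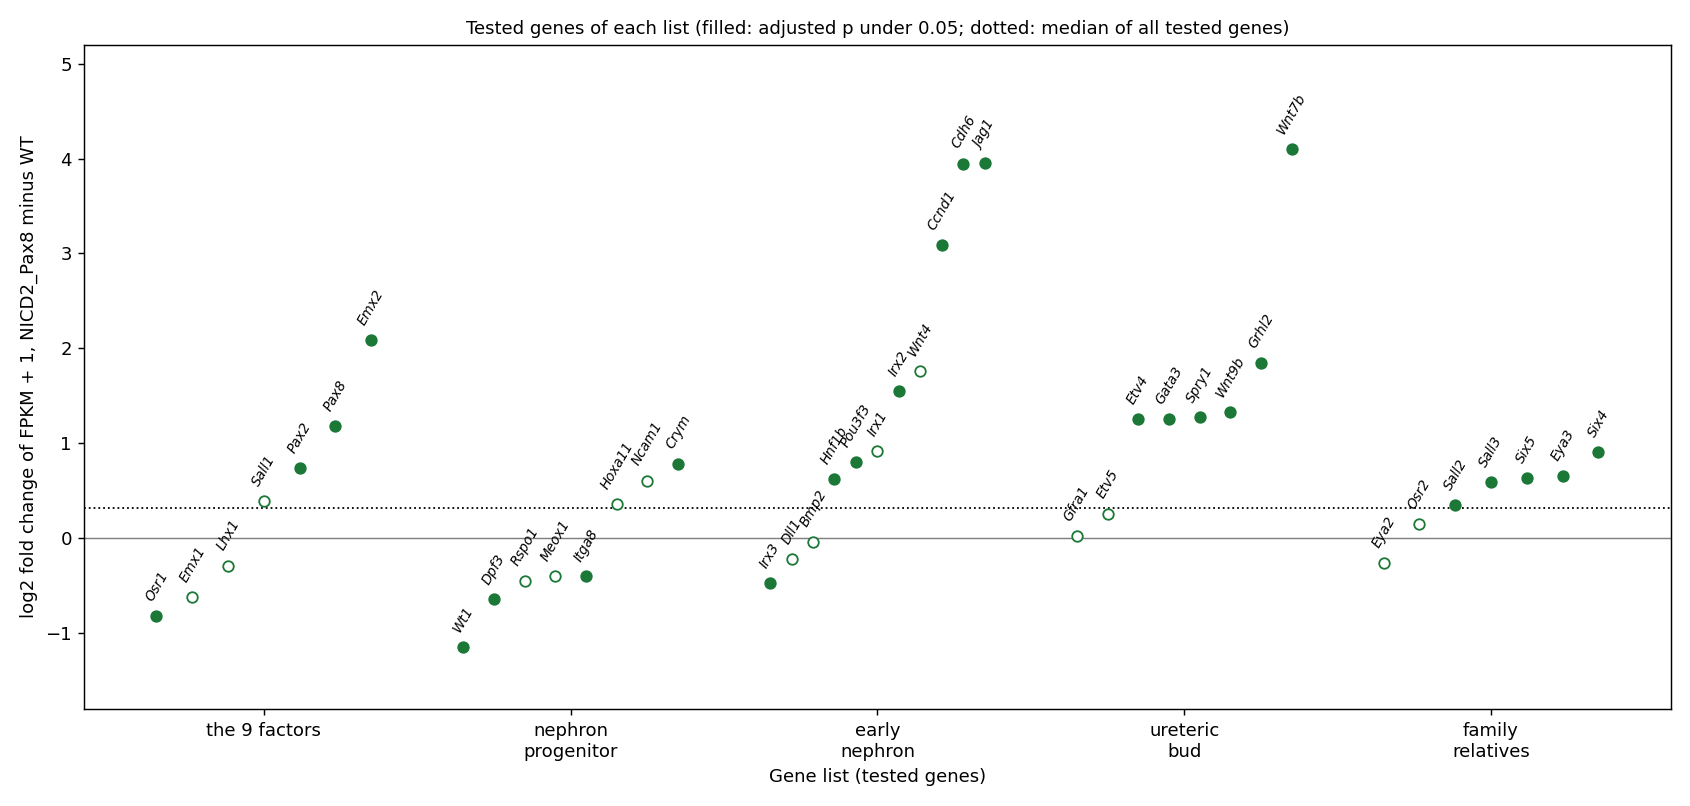
Log2 fold change of FPKM + 1 (NICD2_Pax8 minus WT, vertical axis) of every tested gene of the 9 factors and of the 4 lists, ordered by value within a list, filled where the limma adjusted p was under 0.05, with a dotted line at 0.32, the median of all tested genes. All 8 tested ureteric bud genes lie above 0, though Gfra1 and Etv5 lie below the dotted line. The nephron progenitor genes lie on both sides of 0, and Wnt7b, Jag1 and Cdh6 lie highest.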

How the data were processed

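Per the labels' protocols, kidney RNA was extracted with Trizol and made into TruSeq libraries. The 6 libraries were given as 1 table of 23873 gene rows. Per the file headers its columns are FPKM per library, made by the authors with no scaling named, beside the authors' group means, log2 fold changes, p-values and q-values, the group q-value being named for DESeq2. The authors' columns for single pairs of libraries were not used. Per the submitters' processing notes Bowtie 0.12.2 and mm8 were used, but 88.2% of 22002 gene identifiers had the start and end of RefSeq GRCm38.p6, so the deposited coordinates are read as that build. No source used here names the tool that counted fragments. Columns of other single libraries numbered 0.

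After 4370 empty rows were dropped, 19503 remained. Groups were compared two-sided on log2(FPKM + 1) by limma 3.58.1 (R 4.3.3, trended prior variance, genotype as the only term) for genes that reached 1 FPKM in no fewer than 3 libraries, with Benjamini-Hochberg adjustment over all 13500, called under 0.05. It was tested on simulated data. The labels name no pairing of libraries, but the authors' columns for single pairs join WT and NICD2_Pax8 libraries of the same replicate number. Single-transcript genes of 500 to 1500 bases, 1913 in number, gave the depth estimate; 71.8% to 78.7% of values up to 8 fragments lay within 0.15 of a whole number. That share was not set against chance, step and length offset being chosen on the same values, and other fragment counts use the longest transcript, so they are approximate. Ratios were compared by exact permutation, and Epcam was added after the values were seen.

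The members and lists were chosen with earlier results of these data known. Named genes are the 9 factors, the 2 genes with the smallest p of each of the 4 lists (nephron progenitor, early nephron, ureteric bud, family relatives), the most abundant of each marker list over the 6 libraries, overlapping or adjacent rows, and the 3 genes most like Pax8; others were chosen after their values were seen. Alternatives were other pseudocounts, no filter, 2 scalings, the replicate number as a block and each library left out; 2 combinations without WT replicate 1, with scaling and with no filter, and leaving out each library for the ratios were added after the data were seen.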

Additional observations from a re-analysis of the deposited data

How the results depend on the processing

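The calls of Pax8 and Emx2 held under every alternative run, and the number of all genes called stayed within 1.5 times of 8285, at 6454 to 9625. The call of Osr1 also held wherever it was tested, though with the filter a difference was built into it. With median-of-ratios scaling the log2 fold change was 0.42 for Pax2, which no longer passed, and -0.59 for Lhx1 and -0.95 for Emx1, which then passed. With quantile normalization these were 0.34, -0.68 and -0.97. With scaling and WT replicate 1 left out, an alternative added after seeing the data, they were 0.19, -0.73 and -1.12, and Sall1 turned to -0.37. With a pseudocount of 5 Emx1 passed at -0.50. With no filter and WT replicate 1 left out, also added, Lhx1 passed at -0.36. With each library left out in turn Lhx1 ranged from -0.36 to -0.23 and Emx1 from -0.80 to -0.37; both passed without WT replicate 1, and Emx1 also without NICD2_Pax8 replicate 3. Both scalings bring the median of all genes near 0 by construction; the cause of the other changes was not tested.

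Factors called lower were 1 on FPKM as deposited, 3 with either scaling, 2 with a pseudocount of 5, 2 with both combinations that leave out WT replicate 1, and 0 to 2 with each library left out. Of all tested genes 16.2% were lower on FPKM as deposited, 26% with median-of-ratios scaling, 26.4% with quantile normalization and 12.2% with no filter. With WT replicate 1 left out the share lower was 27.2% with scaling and 13.4% with no filter. Genes called lower were 2180 of 13500 with a pseudocount of 5, and 1625 to 2062 of 12844 to 13223 with each library left out. Nephron progenitor genes called higher were 0 with either scaling, 2 with no filter and WT replicate 1 left out, and 1 to 2 with each library left out, while those called lower were 1 to 2. Early nephron genes called lower were 2 with either scaling, 2 with scaling and 0 with no filter when WT replicate 1 was left out, and 0 to 1 with each library left out. Family relatives called higher were 2 with either scaling, 3 with scaling and WT replicate 1 left out, and 2 to 4 with each library left out. Family relatives called lower were 1 with either scaling, 1 with no filter, and 1 with both combinations that leave out WT replicate 1. Of all tested genes 45.1% were higher on FPKM as deposited, 28.5% with median-of-ratios scaling and 28.6% with quantile normalization. With WT replicate 1 left out the share higher was 31% with scaling and 36.7% with no filter. With each library left out 4604 to 6644 of 12844 to 13223 tested genes were higher.

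Deviations from the group means correlated at 0.095, -0.05 and 0.006 between libraries of the same replicate number. With 3 libraries in each group, these values cannot show whether the libraries were paired. The authors' columns for single pairs join libraries of the same replicate number, so a pairing is not settled. With the replicate block 7982 of 13500 genes were called, 5818 higher and 2164 lower. The factors called lower were then 2, with Emx1 passing at -0.62 (SE 0.14, limma adjusted p = 0.0147). Without the block the SE of Emx1 was 0.23. Family relatives called higher were 3 with the block. At about 15 to 18 fragments per FPKM and kilobase, the differences of Osr1 and Eya1 rest on few fragments.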
